A study of Mus musculus with 79 samples.

Results

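The 31 genes described here encode the glycolytic pathway and the cellular response to low oxygen in mouse. They were taken by symbol, regardless of case, from a fixed list that was chosen with earlier results of these data known. All were found by name in the tables of all 6 experimental arms, out of 23511, 20800 and 24346 gene names in the 3 experiments. Of the 31, 2 carry glucose in or lactate out of the cell, 16 are glycolytic enzymes and 2 are kinases that set the pace of glycolysis. The other 11 belong to the hypoxia-inducible factor (HIF) pathway, 3 of them the factor and its hydroxylases and 8 of them HIF targets outside glycolysis.

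RNA-seq was made from 79 mouse libraries in 3 experiments on adenosylhomocysteinase (AHCY), which clears S-adenosylhomocysteine, the by-product and inhibitor of methyl transfer. In the first experiment, AHCY null mouse embryonic fibroblasts (called KO, a CRISPR-Cas9 line whose number of clones is not given in the sources used here) and wild-type fibroblasts (WT) were collected at CT12, 16, 20, 24, 28 and 32, with 3 libraries per genotype and time. In the second, fibroblasts were given 3-deazaneplanocin A (DZnep, an AHCY inhibitor, dose not given in the sources used here) or its solvent DMSO and collected at CT12 and CT24, with 3 libraries each. In the third, DZnep or saline was infused into the hypothalamus of 10-week-old C57BL/6 mice and the suprachiasmatic nucleus (SCN), the brain's clock, was taken at CT3, 9, 15 and 21, with 4 libraries per group except 3 for saline at CT21. All fibroblasts were embryonic cells of C57BL/6J background, grown to confluence in medium with 4.5 g/l glucose and synchronized with 100 nM dexamethasone for 1 h, and their CT is the number of hours since that treatment. No oxygen treatment is named in the labels, and every value below is an RNA level, not one of HIF protein, enzyme activity or lactate.

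Glycolysis turns glucose into pyruvate, with ATP and NADH made on the way, and lactate dehydrogenase then regenerates the oxidised cofactor by turning pyruvate into lactate. HIF-1 is a pair of proteins whose alpha subunit is hydroxylated by prolyl hydroxylases (the Egln genes) when oxygen is present and is then degraded, so its activity is set mainly at the protein level. Stabilised HIF-1 raises most glycolytic genes, the glucose transporter Slc2a1, angiogenic Vegfa, mitophagy receptor Bnip3, collagen prolyl hydroxylases, and its own hydroxylase genes, while confluent culture and many growth signals also feed into it.

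HIF-1 binds DNA at a core written ACGTG or GCGTG. In the RefSeq promoter table (build GRCm38.p6), 30 of the 31 members were listed, with 44 windows covering the 250 bases before each annotated start. A core on either strand lay in a window of 27 of the 30 members (90.0%) and of 41.5% of all 27025 genes in that table, and the members without one were Gpi1, Tpi1 and Eno2. Among genes tested in the KO experiment it lay in 60.2% of the 10462 with a searched window. Only 77.3% of the 13603 tested names matched the table, so that second share is incomplete. It is still the nearer reference, since the members other than Aldoc were tested there. The share over all genes includes genes not tested and makes the contrast look larger. A gene with several windows counted if any of them held a core. By window, 79.5% of the members' windows held a core, against 54.5% for the matched tested genes and 38.6% for all genes in the table. The palindrome CACGTG, which contains ACGTG on both strands and was counted there too, lay in 5 of the 30 members (16.7%). It lay in 9.69% of the 10462 matched genes tested in the KO experiment and in 6.86% of all genes in the table. A match describes the letters of the window and does not show that any factor binds there. Stretches of 120 bases are shown, 5' to 3' on the gene's own strand and upstream of the start, for members whose RNA differed at least 2-fold between KO and WT libraries and that are described in most detail below, with every ACGTG or GCGTG in capitals (CACGT and CACGC where the core is on the other strand). Only stretches outside annotated exons that hold a core were eligible. Where a gene had several windows, the stretch with most cores was taken. Of the 14 members at least 2-fold changed, 10 had such a stretch. The presence of a core in every stretch shown therefore follows from that choice.
Ldha, chr7:46845684-46845803, plus strand: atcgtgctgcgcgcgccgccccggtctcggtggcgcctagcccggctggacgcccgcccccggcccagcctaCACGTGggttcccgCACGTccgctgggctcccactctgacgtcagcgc
Pfkl, chr10:78009808-78009927, minus strand: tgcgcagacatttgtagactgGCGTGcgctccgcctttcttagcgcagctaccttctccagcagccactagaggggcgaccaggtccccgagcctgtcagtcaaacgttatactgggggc
Hk2, chr6:82774455-82774574, minus strand: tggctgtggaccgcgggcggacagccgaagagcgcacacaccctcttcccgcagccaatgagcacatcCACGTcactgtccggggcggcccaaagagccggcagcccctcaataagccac
Pfkfb3, chr2:11502102-11502221, minus strand: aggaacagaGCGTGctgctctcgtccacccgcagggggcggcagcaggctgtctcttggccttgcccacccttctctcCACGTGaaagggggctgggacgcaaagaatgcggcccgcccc
Hif1a, chr12:73907747-73907866, plus strand: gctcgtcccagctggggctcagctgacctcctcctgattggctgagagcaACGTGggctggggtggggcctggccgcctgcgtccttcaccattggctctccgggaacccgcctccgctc
Bnip3, chr7:138909520-138909639, minus strand: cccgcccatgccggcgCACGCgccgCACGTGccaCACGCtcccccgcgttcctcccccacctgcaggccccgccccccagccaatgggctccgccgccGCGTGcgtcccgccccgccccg
Pdk1, chr2:71873104-71873223, plus strand: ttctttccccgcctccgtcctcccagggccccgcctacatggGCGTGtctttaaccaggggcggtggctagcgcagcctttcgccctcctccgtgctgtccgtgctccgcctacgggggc
P4ha1, chr10:59323176-59323295, plus strand: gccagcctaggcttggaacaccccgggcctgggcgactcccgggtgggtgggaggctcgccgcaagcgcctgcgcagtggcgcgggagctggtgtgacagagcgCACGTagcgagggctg
Ldha, Bnip3 and Pfkfb3 hold the palindrome in these stretches, and the other sequences carry a single core.

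Values in the KO experiment were on a scale of TPM (transcripts scaled to a fixed library total), inferred from library sums of 970075 to 980677. Those of the other experiments were FPKM (fragments scaled by transcript length and library size), summing per library to between 258374 and 366414 for DZnep and DMSO fibroblasts and between 250552 and 322464 for SCN. No read counts were used, so depth is unknown and levels are compared between genes only within an experiment. Ahcy itself was at 2.21 to 4.74 TPM (median 3.18) in the 18 KO libraries and at 131 to 214 TPM (median 180) in the 18 WT libraries, which do not overlap. Under DZnep it averaged 25.1 ± 5.63 FPKM and under DMSO 30.6 ± 9.10 FPKM (SD, n = 6 each; adjusted p = 0.118), and in the SCN 9.43 ± 0.68 FPKM under DZnep and 9.37 ± 1.27 FPKM under saline (n = 16 and 15; adjusted p = 0.996). Of 12 fibroblast markers, 11 reached 1 TPM in every KO library and 12 in every WT library, 12 reached 1 FPKM in every DZnep and DMSO fibroblast library, and all 11 neuron markers did so in every SCN library. The KO and WT lines also differed in sex-linked RNA: Xist lay between 0.0508 and 0.273 TPM in KO and between 135 and 220.1 TPM in WT libraries, and the Y-linked gene Ddx3y between 16.2 and 20.3 TPM in KO and between 0.176 and 0.536 TPM in WT libraries. A difference between KO and WT is therefore one between 2 lines, and loss of AHCY cannot be told apart from other differences between them. Several groups of libraries stood apart: skeletal muscle markers summed to 9.15 to 12.2 TPM in KO libraries and to up to 695.3 TPM in WT libraries, with the high sums in WT at CT20, and a saline SCN library at CT9 had a macrophage and immune marker sum of 826.2 FPKM, where the other 30 SCN libraries lay between 51.9 and 124 FPKM.

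Most of these genes were lower in KO than in WT fibroblasts, and the median difference was larger in the HIF pathway than in glycolysis. Of the 30 members that reached 1 TPM in at least 3 libraries (Aldoc did not), 25 were lower in KO fibroblasts and 4 higher, read as an adjusted p under 0.05 in limma over all 13603 genes tested. Across those genes 47% were lower and 42.6% higher, so a call alone says little here. By size, 13 members were at least 2-fold lower, against 10.8% of all genes, and 1 was at least 2-fold higher, against 7.23%. The members were chosen with earlier results of these data known, and fold changes on values plus 1 understate low genes. Shares of members and of all genes, here and below, are therefore not an even comparison. The median log2 difference (KO minus WT) was -0.62 over the 19 genes of glucose handling and glycolysis and -1.73 over the 11 HIF pathway genes, with -0.05 over all genes tested. Levels are printed as deposited, whereas differences were taken after rescaling the libraries, and on the deposited values the median of all genes was 0.15, so genes such as Eno1 and Pfkp read relatively higher in KO there. Which genes moved in which experiment is plotted with their errors for all members.

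**Figure D1:**
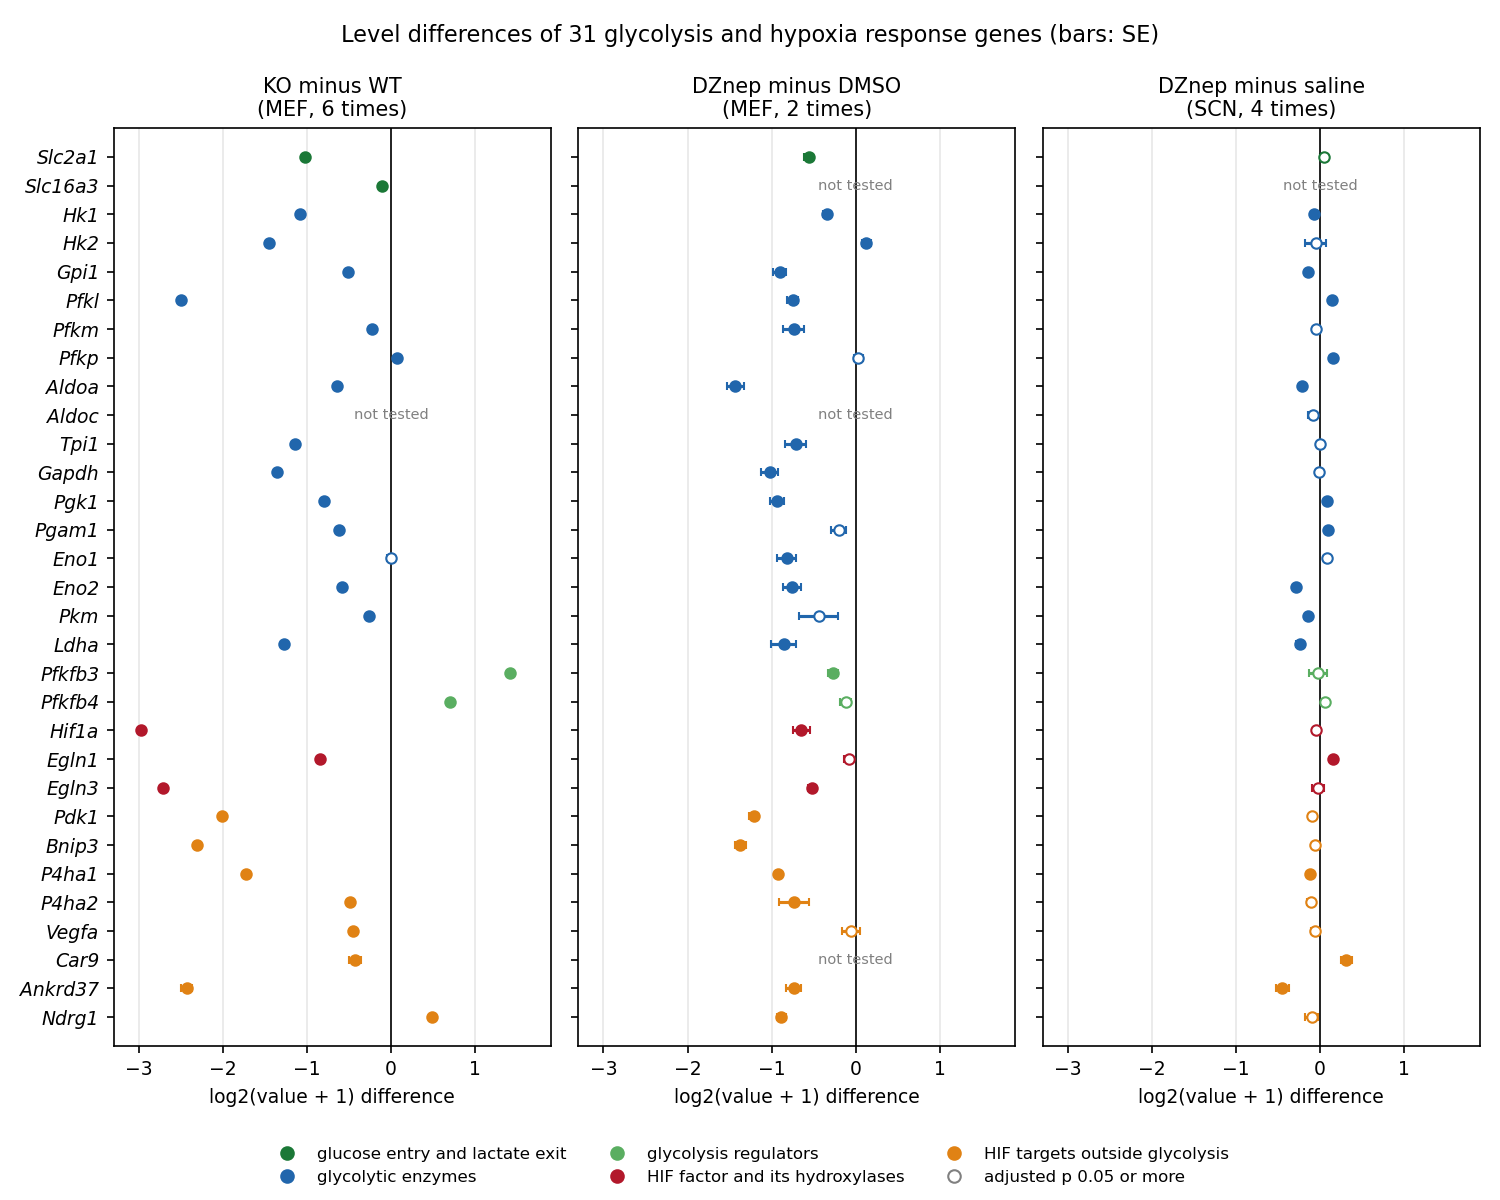
Difference in level (log2, on values plus 1) of each of the 31 members in KO minus WT fibroblasts, DZnep minus DMSO fibroblasts and DZnep minus saline SCN, with standard errors as bars and open symbols for an adjusted p of 0.05 or more. Hif1a lies at -2.98 and Pfkfb3 at 1.42 in the KO panel, while every member in the SCN panel lies within 1 of 0.

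At the entry to the pathway, Slc2a1, the basal glucose transporter GLUT1, was at 39.1 to 50.3 (median 44.6) TPM in KO libraries and at 62.5 to 98.5 (median 82.9) TPM in WT libraries. The 2 groups did not overlap, and the difference was -1.03 ± 0.018 (SE) on the log2 scale (adjusted p = 7.1e-28). Slc16a3, which exports lactate, was barely detected in either line, at 0.765 to 1.35 (median 0.957) TPM in KO and 0.535 to 1.58 (median 0.911) TPM in WT libraries. Its difference of -0.10 passed the test (adjusted p = 0.0178) but took the other sign, 0.16, under quantile normalization.

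Of the 15 glycolytic enzymes tested, 13 were lower in KO fibroblasts, 1 was higher and 1 did not pass the test, with 6 of them at least 2-fold lower. Among all genes tested, 47% were lower, 42.6% higher and 10.8% at least 2-fold lower. Hexokinases trap glucose as its 6-phosphate. Hk2, the inducible form, lay at 10.00 to 15.8 (median 13.4) TPM in KO and 23.3 to 44.4 (median 32.9) TPM in WT libraries, and Hk1, the constitutive form, at 41.1 to 47.3 (median 42.9) TPM in KO and 72.5 to 89.5 (median 80.5) TPM in WT libraries. Neither pair of ranges overlapped, with differences of -1.45 ± 0.021 (SE) for Hk2 and -1.08 ± 0.019 (SE) for Hk1. Gpi1, the isomerase of the next step, was at 231 ± 5.75 TPM in KO and 286 ± 27.8 TPM in WT libraries (SD, n = 18 each), a difference of -0.52.

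Phosphofructokinase, the committed step, showed the largest shift among the enzymes. Pfkl, the liver-type subunit, was at 34.9 to 41.3 (median 37.97) TPM in KO and 166 to 212 (median 184) TPM in WT libraries, a gap far wider than the spread within either line. The difference was -2.50 ± 0.02 (SE) on the log2 scale, or 5.64-fold lower in KO (adjusted p = 2.82e-36). The muscle-type Pfkm had overlapping ranges, 53.05 to 60.3 (median 57.2) TPM in KO and 47.1 to 68.5 (median 58.2) TPM in WT libraries, with a difference of -0.23 (adjusted p = 5.81e-12) that was lost when the values were used as deposited (-0.02, adjusted p = 0.437). Pfkm is also a skeletal muscle transcript, and its WT level was 48.6, 52.7, 65.2, 57.2, 60.5 and 64.5 TPM at CT12, 16, 20, 24, 28 and 32. The high muscle marker sums were at CT20, where Pfkm was above its level at CT16 and CT24. At CT32, where Pfkm was at 64.5 TPM, those markers summed to 8.12 to 8.92 TPM. Without CT20 the KO minus WT difference of Pfkm was -0.20 (adjusted p = 8.38e-09). The part of muscle RNA in the Pfkm level was not tested. The platelet-type Pfkp was the enzyme higher in KO, at 12.6 ± 1.3 TPM in KO and 10.3 ± 0.93 TPM in WT libraries, a difference of only 0.07 (adjusted p = 0.0134). Of the summed phosphofructokinase RNA, Pfkl made up 35.1% ± 1.13 in KO and 73.2% ± 2.86 in WT libraries (SD, n = 18 each), and Pfkm 53.2% in KO and 22.8% in WT libraries. The leading subunit RNA was thus Pfkm in KO and Pfkl in WT fibroblasts.

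**Figure D2:**
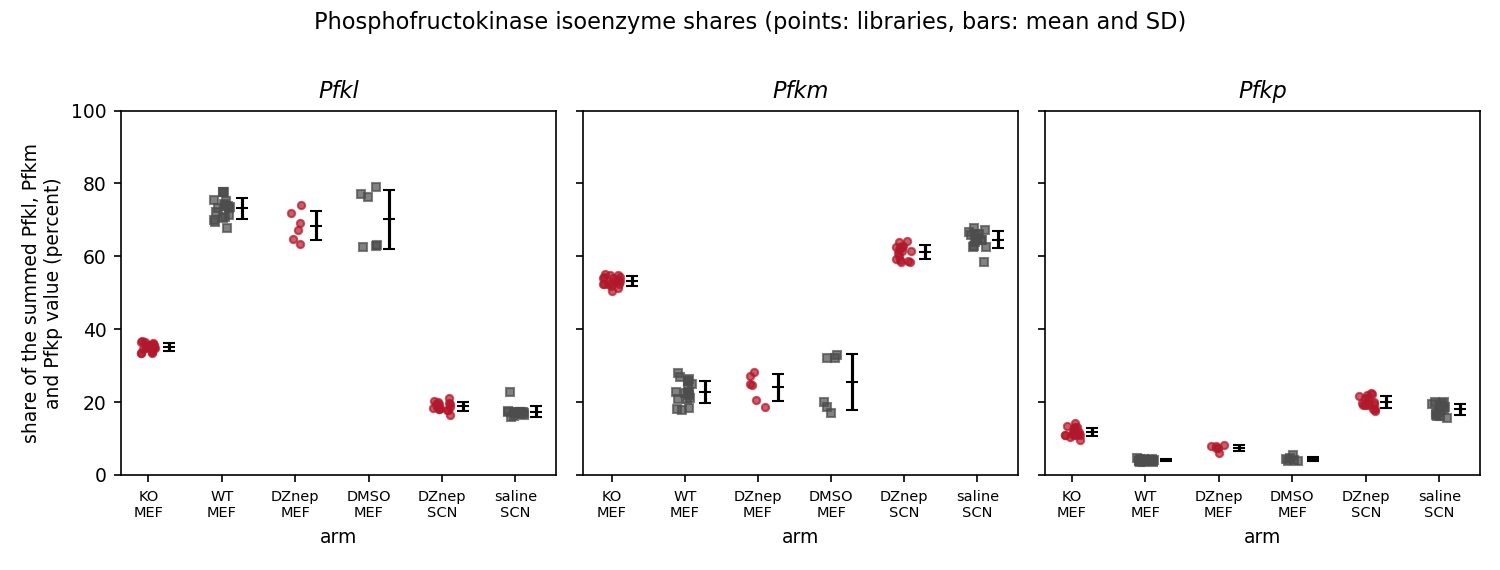
Share of summed phosphofructokinase RNA (percent, on the deposited TPM or FPKM scale) taken by Pfkl, Pfkm and Pfkp in each of the 6 arms. Pfkl holds 35.1% in KO and 73.2% in WT fibroblasts, 68.5% in DZnep and 70.2% in DMSO fibroblasts (means over CT12 and CT24), and 18.8% in DZnep and 17.4% in saline SCN.

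The abundant enzymes of the lower pathway were also lower in KO, apart from Eno1. Gapdh, which oxidises glyceraldehyde 3-phosphate, was at 2530 to 2736 (median 2645) TPM in KO and 5139 to 6366 (median 5873) TPM in WT libraries, a difference of -1.36 ± 0.019 (SE) with no overlap. Tpi1, the triose isomerase, was at 524 ± 17.1 TPM in KO and 1002 ± 67.3 TPM in WT libraries, a difference of -1.15. Aldoa, the aldolase of most tissues, differed by -0.64, Pgk1, the first ATP-making kinase, by -0.80, Pgam1, the mutase, by -0.62, and Pkm, pyruvate kinase, by -0.26. The sign for Pkm depended on scaling, and was 0.27 under quantile normalization. Eno1, the general enolase, had overlapping ranges of 418 to 742 (median 534) TPM in KO and 384 to 682 (median 459) TPM in WT libraries (difference -0.00, adjusted p = 0.952; 0.22 with values as deposited). Eno2, the neuronal enolase, was a minor form, at 15.9 ± 3.47 TPM in KO and 21.1 ± 5.14 TPM in WT libraries, a difference of -0.58.

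Ldha, which makes lactate, was at 570.0 to 741 (median 664) TPM in KO and 1165 to 1576 (median 1407) TPM in WT libraries. No KO library reached the lowest WT library, and the difference was -1.27 ± 0.014 (SE) (adjusted p = 1.08e-32). Summed over the 16 enzymes, glycolytic RNA made up 0.87% ± 0.0237 of the library in KO and 1.43% ± 0.0883 in WT fibroblasts (SD, n = 18 each). The genome holds near-identical copies of Gapdh, Pgam1, Ldha, Eno1, Tpi1, Aldoa, Pgk1 and Pkm, and how the authors' counting shared reads among copies is not stated, which leaves their levels uncertain.

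**Figure D3:**
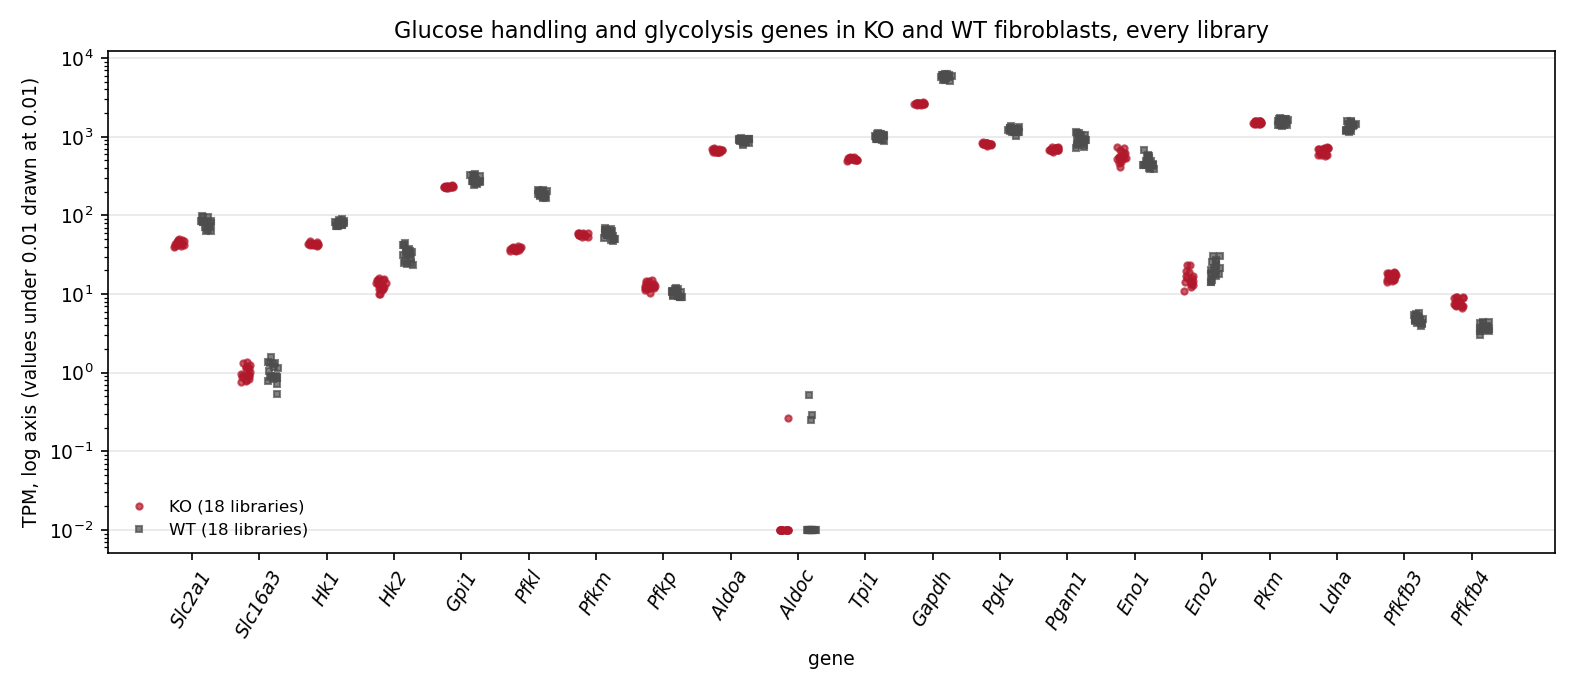
Level (TPM, log axis) of the 20 glucose handling and glycolysis genes in each KO library (left of each pair) and each WT library (right), 18 per line. Pfkl and Gapdh form separate clouds in KO and WT, Eno1 and Pfkm overlap, and Pfkfb3 and Pfkfb4 are higher in KO.

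The regulators went the other way. Pfkfb3, which makes fructose 2,6-bisphosphate, the strongest activator of phosphofructokinase, was at 14.2 to 19.1 (median 16.9) TPM in KO libraries, above all WT libraries at 3.88 to 5.7 (median 4.8) TPM. The difference was 1.42 ± 0.022 (SE), or 2.67-fold on values plus 1 (adjusted p = 3.49e-29), the only member at least 2-fold higher in KO. Its relative Pfkfb4 was at 6.73 to 9.25 (median 7.57) TPM in KO and 3.01 to 4.46 (median 3.72) TPM in WT libraries, without overlap (difference 0.70 ± 0.031 (SE)). Both genes are also known HIF targets, and the Pfkfb3 promoter stretch printed above holds CACGTG.

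In the HIF pathway the factor's own RNA and that of a hydroxylase were the most reduced members. Hif1a, the oxygen-regulated alpha subunit, was at 44.4 to 61.3 (median 54.6) TPM in KO and 287 to 446 (median 379) TPM in WT libraries. The highest KO library was far below the lowest WT library, and the difference was -2.98 ± 0.018 (SE), or 7.88-fold lower (adjusted p = 6.22e-39). Egln3, the strongly HIF-induced prolyl hydroxylase PHD3, was at 1.63 to 2.75 (median 2.1) TPM in KO and 13.4 to 21.5 (median 17.5) TPM in WT libraries (difference -2.72 ± 0.034 (SE)). The order of these genes depended on the pseudocount, since with 0.1 in place of 1 the difference was -3.00 for Hif1a and -3.17 for Egln3. Egln1, the main oxygen sensor PHD2, showed a smaller difference of -0.85, with 35.2 to 39.3 (median 36.4) TPM in KO and 46.03 to 67.2 (median 56.4) TPM in WT libraries and no overlap.

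Of the 8 HIF targets outside glycolysis, 7 were lower in KO, 4 of these at least 2-fold, and Ndrg1 was higher. The shares of all genes were 47% lower, 10.8% at least 2-fold lower and 42.6% higher. Ankrd37, a small ankyrin-repeat gene induced by hypoxia, was at 1.06 to 3.17 (median 1.95) TPM in KO and 9.9 to 16.5 (median 12.5) TPM in WT libraries (difference -2.43 ± 0.062 (SE)). Bnip3, a receptor for removal of mitochondria, was at 36.05 to 49.7 (median 42.3) TPM in KO and 161 to 226 (median 179) TPM in WT libraries (difference -2.31 ± 0.023 (SE)). Pdk1, which shuts pyruvate dehydrogenase, was at 11.3 to 13.3 (median 12.2) TPM in KO and 39.1 to 57.8 (median 43.2) TPM in WT libraries (difference -2.01 ± 0.018 (SE)). In none of these 3 genes did a KO library reach a WT library. P4ha1 and P4ha2, the alpha subunits of collagen prolyl 4-hydroxylase, differed in degree: P4ha1 was at 47.2 to 59.3 (median 51.2) TPM in KO and 142 to 158 (median 152) TPM in WT libraries (difference -1.73 ± 0.013 (SE)), and P4ha2 differed by -0.48, with ranges that overlapped.

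The other targets differed less. Vegfa, the angiogenic growth factor, was at 70.2 to 106 (median 84.2) TPM in KO and 84.2 to 124 (median 97.4) TPM in WT libraries, overlapping, with a difference of -0.45. Car9, a cell-surface carbonic anhydrase often used as a hypoxia marker, was near the detection limit in both lines, at 0.688 to 2.45 (median 1.23) TPM in KO and 1.16 to 2.55 (median 1.88) TPM in WT libraries (difference -0.43, adjusted p = 1.37e-06). Ndrg1, a stress-response gene, was at 23.9 to 36.05 (median 30.2) TPM in KO, above WT libraries at 14.9 to 21.04 (median 17.6) TPM (difference 0.49 ± 0.026 (SE)).

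All 29 calls held with each of the 36 libraries left out. These libraries were bulk cultures, so fewer cells of a type and less RNA per cell cannot be told apart. Macrophage and immune markers summed to 4.25 to 6.69 TPM in KO and 26.9 to 37.6 TPM in WT libraries. Only 1 or 2 of these 10 reached 1 TPM in a KO library and 1 in a WT library. Endothelial and mural markers summed to 3.31 to 9.34 TPM in KO and 139 to 273.9 TPM in WT libraries. Of these 10, 1 or 2 reached 1 TPM in a KO library and 2 in a WT library. The WT sums thus rest on 1 or 2 genes of each list and do not show the presence of such cells. Nuclear RNAs (Malat1, Neat1, Meg3 and Xist) summed to 463 to 1359 TPM in KO and 805 to 2367 TPM in WT libraries. Xist, which differs between the lines as given above, is part of that sum. The part of all these in the members' differences was not tested.

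Other genes of the same pathways were counted from lists. Since 47% of all genes tested were lower in KO, 42.6% higher and 10.8% at least 2-fold lower, counts near these shares say little. Of 30 other HIF targets, 25 were lower in KO and 4 higher, with a median difference of -0.81 and 14 at least 2-fold lower. Among them Lox, which cross-links collagen, differed by -4.79, Ddit4, a stress-induced inhibitor of mTORC1, by -4.51, and Plod2, a collagen lysyl hydroxylase, by -3.44. The rest of the HIF machinery was split, with 4 lower and 5 higher of 11: Arnt2, a partner subunit, differed by -2.75, Vhl, which marks hydroxylated HIF for degradation, by -0.97, and Epas1, the HIF-2 alpha subunit, by 0.40. Of 14 other glycolysis genes 8 were lower and 5 higher, of 13 genes that bring pyruvate into mitochondria 7 lower and 4 higher, and of 20 genes of the tricarboxylic acid cycle 12 lower and 8 higher. In the mitochondrial list Pdk4, a starvation-induced relative of Pdk1, differed by -3.10, and in the cycle Cs, citrate synthase, by -0.67 and Idh3a, an isocitrate dehydrogenase subunit, by 0.81. The pentose phosphate list had 5 lower and 3 higher of 10, and the glycogen and gluconeogenesis list 8 lower and 3 higher of 13. The median differences of these last 5 lists lay between -0.32 and -0.07.

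Over time after synchronization, fewer of these genes moved in KO than in WT fibroblasts, as was so of genes at large. Between CT12 and CT32, 7 members fell and 6 rose in KO libraries, against 18.2% and 16.9% of all genes, and 15 fell and 7 rose in WT libraries, against 29.5% and 36.7% of all genes. In KO libraries 3 of the 15 enzymes fell, Hk2 (-0.38), Ldha (-0.35) and Pfkp (-0.27), and Eno2 rose by 0.49. In WT libraries 10 enzymes fell, among them Hk2 (-0.83), Pgam1 (-0.60), Eno1 (-0.58) and Ldha (-0.46), while Eno2 rose by 0.91, Pfkm by 0.34 and Gpi1 by 0.27. The change itself differed between lines for 18 members, being more positive in KO for 10 and more negative for 8, against 23.1% and 24.9% of all genes. These changes compare the end times only, and the WT course between them was not a steady fall. Summed over the glycolytic enzymes, the WT share of the library was 1.523%, 1.435%, 1.326%, 1.439%, 1.507% and 1.332% at CT12, 16, 20, 24, 28 and 32. The part of the muscle RNA at CT20 in this course was not tested.

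Hif1a rose in both lines, by 0.19 in KO (50.96 ± 0.357 TPM at CT12, 59.6 ± 2.31 TPM at CT32) and by 0.44 in WT libraries (293 ± 9.06 and 417 ± 19.02 TPM; SD, n = 3). The rise was smaller in KO, with a difference of -0.25 (adjusted p = 0.00128). Slc2a1 stayed near its CT12 level in KO libraries (43.8, 41.7 and 41.01 TPM at CT12, 44.7, 43.8 and 45.5 TPM at CT32), whereas in WT libraries it had 98.5, 94.9 and 95.3 TPM at CT12 and 72.7, 70.3 and 71.99 TPM at CT32. The WT values did not overlap between the times and the change differed between lines by 0.54 ± 0.063 (SE) (adjusted p = 6.66e-08).

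Vegfa moved in opposite directions. In KO libraries it was at 98.6, 106 and 101 TPM at CT12 and 70.2, 73.7 and 75.1 TPM at CT32, and in WT libraries at 89.6, 87.4 and 84.2 TPM at CT12 and 124, 117 and 116 TPM at CT32. On these deposited values KO libraries were the higher at CT12 and the lower at CT32. After rescaling the lines were nearly level at CT12: the means on the log2 scale were 6.58 in KO and 6.60 in WT at CT12, and 6.07 in KO and 6.98 in WT at CT32. The change was -0.51 in KO and 0.38 in WT libraries, and their difference -0.89 ± 0.06 (SE) (adjusted p = 2.33e-12). Ndrg1 did the reverse: it rose by 0.48 in KO (24.3 ± 0.547 and 35.2 ± 0.981 TPM at CT12 and CT32) and fell in WT libraries, with a change of -0.20 (17.98 ± 0.657 and 16.2 ± 1.09 TPM), a difference of 0.69 (adjusted p = 4.07e-07). P4ha2 fell in both lines, with changes of -0.59 in KO and -0.23 in WT libraries, and the difference between the changes, -0.36, passed the test (adjusted p = 2.24e-06).

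**Figure D4:**
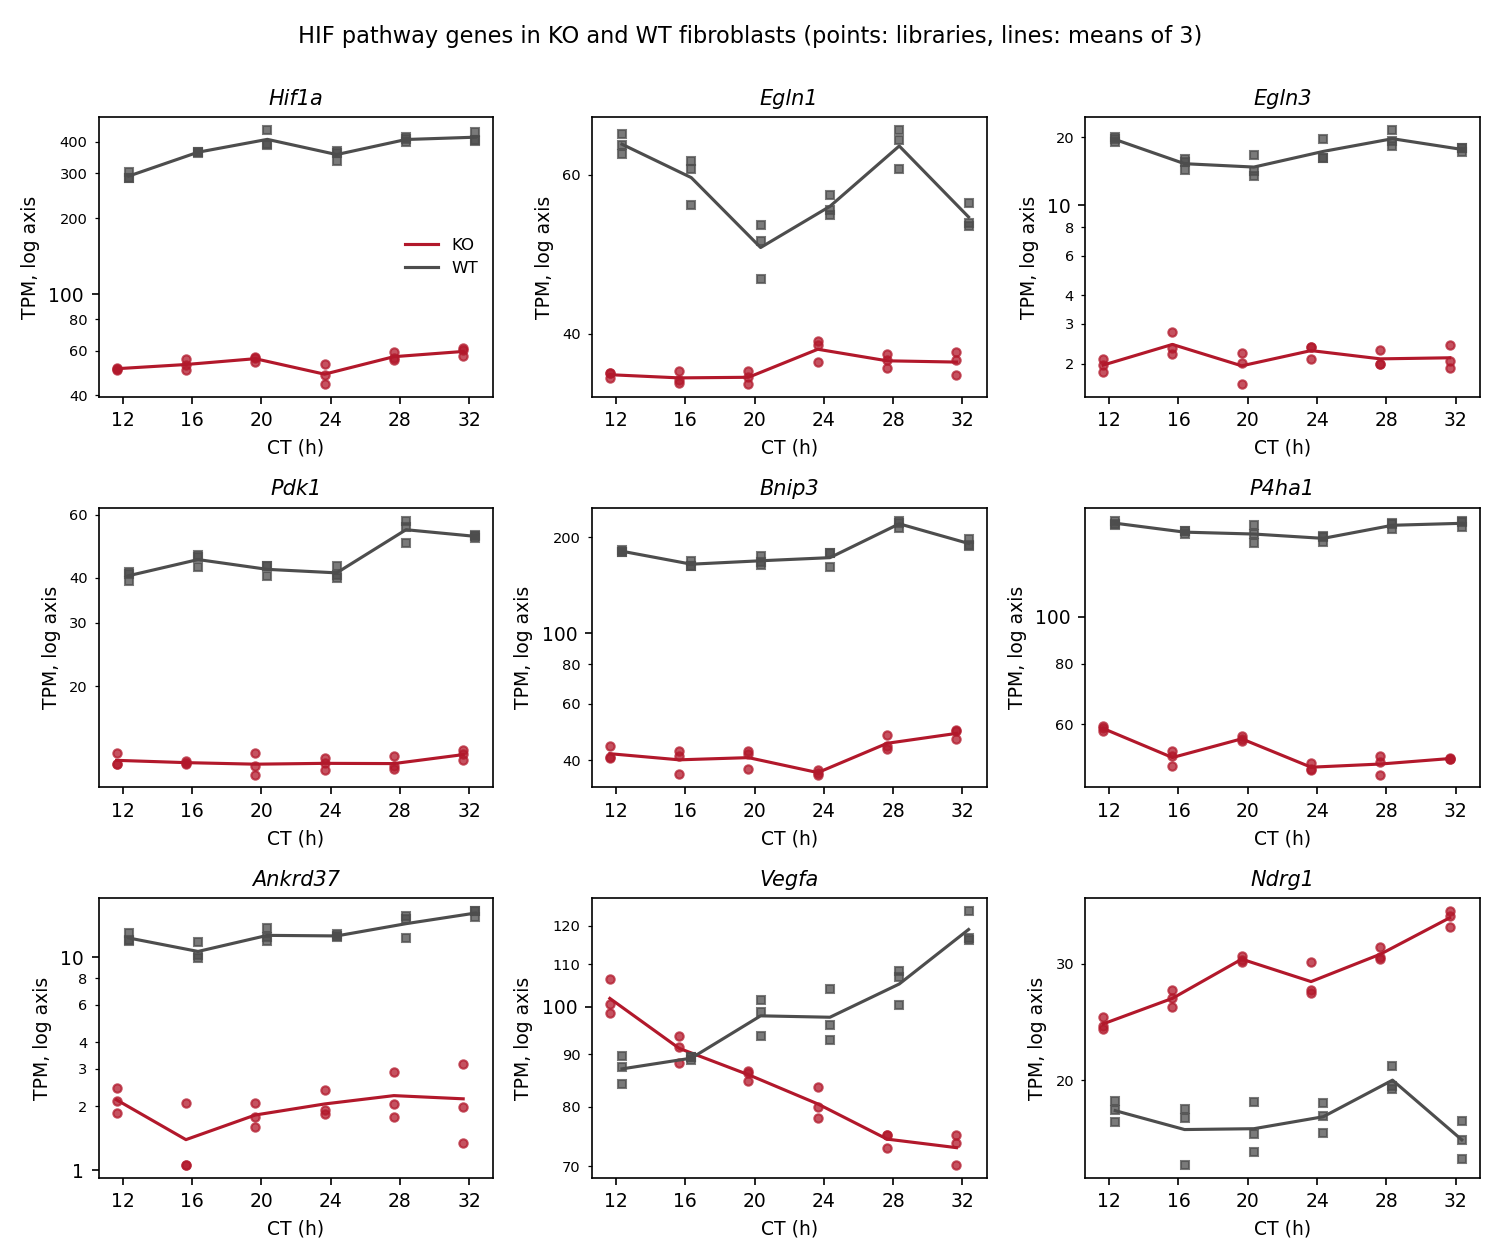
Level (TPM, log axis) of 9 HIF pathway genes by CT in KO and WT fibroblasts, points for libraries and lines through the means of 3. Vegfa starts near 102 TPM in KO and 87.0 TPM in WT at CT12 and ends at 73.0 TPM in KO and 119 TPM in WT at CT32, while Hif1a and Bnip3 in KO stay below WT at every time.

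A 24 h cosine was fitted by limma to each gene in each line. In KO libraries 6 of the 30 members passed (Ldha, Pfkfb3, Bnip3, P4ha1, P4ha2 and Vegfa), against 9.89% of all genes, and in WT libraries 11 passed (Hk1, Gpi1, Pfkm, Aldoa, Eno1, Pfkfb3, Egln3, Pdk1, Bnip3, Vegfa and Ankrd37), against 36.5%. Amplitudes of those that passed were small, at most 0.20 on the log2 scale in KO (Vegfa, adjusted p = 0.00105) and 0.23 in WT (Eno1, adjusted p = 0.0127). Bnip3 had amplitudes of 0.13 in KO, with a fitted peak at 8.29 h of a 24 h cycle, and 0.17 in WT, with a peak at 5.68 h. The fitted curves differed between lines for 5 members (Gpi1, Aldoa, Pdk1, P4ha2 and Vegfa), against 14.5% of all genes, with the largest difference for Vegfa at 0.35 (adjusted p = 7.52e-05). The 6 times span only 20 h, so a cosine and a steady drift are hard to separate. When any difference among times was tested, 16 members and 5813 of 13603 genes passed in KO and 28 members and 9454 genes in WT. With a linear trend in the model, 5 members and 907 genes passed in KO and 21 members and 4228 genes in WT. Not every course was a drift or a single wave. The WT means of Ldha on the log2 scale, for example, fell, rose and fell again. They were 10.759, 10.531, 10.345, 10.567, 10.634 and 10.296 at CT12, 16, 20, 24, 28 and 32.

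Most of the glycolytic and hypoxia genes were also lower in fibroblasts given DZnep than in those given DMSO. Of the 28 members tested (Slc16a3, Aldoc and Car9 were below 1 FPKM), 21 were lower under DZnep than under DMSO and 1 was higher, against 32.7% and 33.1% of the 10896 genes tested. At least 2-fold lower were 4 members, against 2.99% of all genes. The median log2 difference was -0.73 over the 18 genes of glucose handling and glycolysis and -0.73 over the 10 HIF pathway genes, with 0.01 over all genes. All 21 lower calls held with each of the 12 libraries left out.

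Slc2a1 had 20.1, 20.6 and 21.8 FPKM under DZnep at CT12, against 32.7, 32.3 and 29.04 FPKM under DMSO, and 16.3, 18.5 and 19.2 FPKM under DZnep at CT24, against 25.1, 21.96 and 27.9 FPKM under DMSO. The groups did not overlap at either time, and the difference over both was -0.56 ± 0.056 (SE) (adjusted p = 3.97e-06). Of the 15 enzymes, 11 were lower and 1 higher, against 32.7% and 33.1% of all genes. Aldoa showed the largest difference of all members, -1.43 ± 0.1 (SE), with 173, 179 and 194 FPKM under DZnep and 457, 485 and 409 FPKM under DMSO at CT12, and 107, 118 and 127 FPKM under DZnep and 321, 253 and 416 FPKM under DMSO at CT24. At both times every DZnep library was below every DMSO library.

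Gapdh was at 16.5 to 40.5 (median 26.3) FPKM under DZnep and 31.7 to 79.4 (median 57.99) FPKM under DMSO, a difference of -1.02 ± 0.1 (SE) (adjusted p = 4.26e-06). That level was below Pkm, at 269.6 to 465 (median 362) FPKM under DZnep and 150.4 to 696 (median 594) FPKM under DMSO, whereas in the KO experiment Gapdh was the highest of the members, so its level in the DZnep and DMSO fibroblasts is uncertain. In the SCN, also in FPKM, Gapdh was the highest of the members too. Its group means there were 8.71 to 8.77 on the log2 scale, above Aldoa at 8.12 to 8.44. Gpi1, at 66.9 to 77.3 (median 73.96) FPKM under DZnep and 106 to 152 (median 134) FPKM under DMSO, differed by -0.91 with no overlap. Pgk1 differed by -0.94, Ldha by -0.86, Eno1 by -0.82, Eno2 by -0.76, Tpi1 by -0.71, Pfkm by -0.74 and Hk1 by -0.34.

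Pfkl had 50.9, 57.95 and 64.3 FPKM under DZnep and 114, 111 and 101 FPKM under DMSO at CT12, and 37.8, 41.9 and 43.4 FPKM under DZnep and 54.6, 53.3 and 66.8 FPKM under DMSO at CT24. The DZnep libraries were the lower at each time, with a difference of -0.75 ± 0.067 (SE) over both, and the subunit's share of phosphofructokinase RNA moved differently at each time. That share was 69.2% to 74.0% under DZnep and 76.2% to 79.0% under DMSO at CT12, and 63.4% to 67.3% under DZnep and 62.5% to 63.2% under DMSO at CT24. The ranges did not overlap at either time, with DZnep the lower at CT12 and the higher at CT24. Pfkp did not pass the test (difference 0.03, adjusted p = 0.614), and its share was 5.89% to 8.22% under DZnep and 3.81% to 5.40% under DMSO. Hk2 was the member higher under DZnep, at 13.5, 14.00 and 13.6 FPKM under DZnep and 12.3, 11.04 and 10.1 FPKM under DMSO at CT12, but 7.97, 8.37 and 8.64 FPKM under DZnep and 7.58, 8.31 and 7.71 FPKM under DMSO at CT24, where they overlapped. Its difference of 0.13 ± 0.052 (SE) was at the threshold (adjusted p = 0.0453) and was lost without any 1 of the 12 libraries except DMSO replicate 1 at CT12 and DMSO replicate 2 at CT24 (adjusted p = 0.0597 to 0.117). Pgam1 (-0.20, adjusted p = 0.0709) and Pkm (-0.44, adjusted p = 0.114) did not pass. The DMSO libraries at CT24 had 428, 150.4 and 508 FPKM of Pkm, and without the lowest of them, replicate 2, the difference was -0.70 (adjusted p = 6.57e-07). That library stood apart more widely, with Malat1 at 2.33 times the median of the DMSO libraries and the lowest library sum of the experiment (258374). Its glycolytic enzymes made up 0.5646% of the library, the lowest share under DMSO. The enzymes together made up 0.562% ± 0.0833 of the library under DZnep and 0.857% ± 0.199 under DMSO (SD, n = 6 each). Of the regulators, Pfkfb3 was lower under DZnep, with a log2 difference of -0.27 (adjusted p = 0.00137) and Pfkfb4 did not pass (-0.12, adjusted p = 0.119).

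In the HIF pathway 8 of 10 genes were lower under DZnep and none higher, against 32.7% and 33.1% of all genes. Hif1a had 73.7, 76.4 and 69.3 FPKM under DZnep and 129.9, 126 and 141 FPKM under DMSO at CT12, and 115, 104 and 116 FPKM under DZnep and 154, 167 and 110.0 FPKM under DMSO at CT24. The groups were apart at CT12 and overlapped at CT24, with a difference over both of -0.65 ± 0.1 (SE) (adjusted p = 0.000152). Bnip3 had 20.5, 21.6 and 23.4 FPKM under DZnep and 63.1, 61.2 and 54.4 FPKM under DMSO at CT12, 20.2, 18.9 and 22.02 FPKM under DZnep and 52.5, 50.6 and 44.6 FPKM under DMSO at CT24, and differed by -1.37 ± 0.065 (SE). Pdk1, at 6.52 to 8.51 (median 7.54) FPKM under DZnep and 15.6 to 19.7 (median 18.7) FPKM under DMSO, differed by -1.21 ± 0.056 (SE). For both of these targets the highest DZnep library was below the lowest DMSO library. P4ha1 differed by -0.92, Ndrg1 by -0.89, Ankrd37 by -0.74, P4ha2 by -0.73 and Egln3 by -0.52. Egln1 (-0.08, adjusted p = 0.212) and Vegfa (-0.05, adjusted p = 0.689) did not pass. Fibroblast markers summed to 2537 to 2716 FPKM under DZnep and 4133 to 4863 FPKM under DMSO, and their part in these differences was not tested.

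Between CT12 and CT24, 10 members fell and 4 rose under DZnep, against 17.8% and 19.4% of all genes, and 14 fell and 4 rose under DMSO, against 23.9% and 26.8%. Vegfa changed by 0.32 under DZnep (adjusted p = 0.112) and rose by 0.81 under DMSO (adjusted p = 0.00119), but the difference between the changes did not pass (adjusted p = 0.23). Hif1a rose under DZnep by 0.69 (adjusted p = 0.00335) and changed by 0.20 under DMSO (adjusted p = 0.267), and the difference between these changes did not pass either (adjusted p = 0.192). The change was more positive under DZnep for Egln1 (0.51 ± 0.11 (SE), adjusted p = 0.02), against 3.2% of all genes, and more negative for Pfkfb3 (-0.53 ± 0.12 (SE), adjusted p = 0.0221), against 2.91%. Egln1 had 20.4, 22.2 and 22.6 FPKM at CT12 and 20.8, 22.3 and 22.6 FPKM at CT24 under DZnep, and 28.5, 27.5 and 24.4 FPKM at CT12 and 19.2, 16.4 and 20.3 FPKM at CT24 under DMSO. Pfkfb3 had 1.6, 1.65 and 1.69 FPKM at CT12 and 1.59, 1.49 and 1.51 FPKM at CT24 under DZnep, and 1.63, 1.6 and 1.58 FPKM at CT12 and 2.96, 2.51 and 2.24 FPKM at CT24 under DMSO. The change of Pfkfb3 was -0.01 under DZnep (adjusted p = 0.938) and 0.52 under DMSO (adjusted p = 0.000393), where the times did not overlap.

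Of 30 other HIF targets, 16 were lower and 9 higher under DZnep, with a median difference of -0.23. For these and the lists that follow, the shares of all genes tested were 32.7% lower and 33.1% higher. Loxl2, a collagen cross-linking enzyme, differed by -1.69, and Angptl4, a lipase inhibitor, by 0.75. Of the other HIF machinery 4 were lower and 4 higher of 10, with Cited2, which competes with HIF for the co-activator p300, at 1.89 and Arnt, the constitutive partner of HIF-1 alpha, at -0.41. The tricarboxylic acid cycle list had 12 lower and 3 higher of 20, the glycogen and gluconeogenesis list 6 lower and 1 higher of 12, the pyruvate list 4 lower and 5 higher of 13, the list of other glycolysis genes 3 lower and 3 higher of 10, and the pentose phosphate list 2 lower and 5 higher of 9. In the last of these, Tkt, transketolase, was lower, with a log2 difference of -1.17.

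Both fibroblast experiments had their own controls, so their calls can be set side by side. Of the 28 members tested in both, 18 were lower in both (64.3%), against 20.5% of the 10742 genes tested in both. That is 78.3% of the 23 members lower in KO and 85.7% of the 21 lower under DZnep, against 43.3% and 62.4% over all genes. Of all genes, 5089 were lower in KO and 3533 under DZnep, smaller shares than among the members. A larger overlap of the members follows from that alone, so these shares do not show agreement gene by gene. No member was higher in both, and 3 were called in opposite directions: Pfkfb3 at 1.42 in KO and -0.27 under DZnep, Ndrg1 at 0.49 in KO and -0.89 under DZnep, and Hk2 at -1.45 in KO and 0.13 under DZnep. The order of sizes was not the same, with Hif1a, Egln3 and Pfkl leading in KO and Aldoa, Bnip3 and Pdk1 under DZnep. The units and lines of the experiments differ, and no difference between their effects was tested.

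In the SCN the same genes changed little. Of the 30 members tested (Slc16a3 did not reach 1 FPKM in 3 libraries), 8 were lower and 6 higher under DZnep than under saline, against 18.3% and 16.9% of the 13312 genes tested, and none by as much as 2-fold. The median difference over the members was -0.05 and over all genes -0.00. Of the 16 enzymes, 6 were lower (Eno2, Ldha, Aldoa, Pkm, Gpi1 and Hk1) and 4 higher (Pfkp, Pfkl, Pgam1 and Pgk1). The deposited SCN values carry decimals like those of means of 4 numbers, so what a single value stands for is uncertain.

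Eno2, the enolase of neurons, was at 54.3 to 81.9 (median 70.5) FPKM in the 16 DZnep libraries and 66.8 to 103 (median 85.6) FPKM in the 15 saline libraries. The ranges overlapped, and the difference was -0.29 ± 0.038 (SE) (adjusted p = 1.96e-06), with a share of summed Eno1 and Eno2 RNA of 31.4% under DZnep and 37.2% under saline. Neuron markers summed to 609 to 803 FPKM under DZnep and 660.2 to 915 FPKM under saline, nuclear RNAs to 590.2 to 1110 FPKM under DZnep and 992 to 1459 FPKM under saline, and their part in the difference was not tested. Aldoa was at 246 to 329.9 (median 303) FPKM under DZnep and 311 to 379 (median 329.9) FPKM under saline (difference -0.21 ± 0.023 (SE), adjusted p = 9.87e-08), and Ldha at 27.6 to 39.8 (median 32.1) FPKM under DZnep and 34.2 to 52.5 (median 36.4) FPKM under saline (difference -0.24 ± 0.047 (SE), adjusted p = 0.000235). Aldoc, the aldolase of astrocytes and the only enzyme seen here and not in fibroblasts, was at 124 to 181 (median 144) FPKM under DZnep and 85.6 to 194 (median 151) FPKM under saline and did not pass (adjusted p = 0.199). Pfkl was higher under DZnep, at 18.4 ± 1.15 FPKM under DZnep and 16.4 ± 1.11 FPKM under saline (SD, n = 16 and 15; difference 0.14 ± 0.025 (SE), adjusted p = 1e-04). Summed, the enzymes made up 0.65% ± 0.0398 of the library under DZnep and 0.68% ± 0.0304 under saline.

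Of the 11 HIF pathway genes in the SCN, Ankrd37 and P4ha1 were lower and Car9 and Egln1 higher. Ankrd37 was at 1.66 to 4.96 (median 2.67) FPKM under DZnep and 2.56 to 5.86 (median 3.88) FPKM under saline (difference -0.45 ± 0.078 (SE), adjusted p = 5.98e-05), and Car9 at 0.689 to 1.89 (median 0.956) FPKM under DZnep and 0.316 to 0.98 (median 0.647) FPKM under saline (difference 0.31 ± 0.067 (SE), adjusted p = 0.000583). Both were low and their ranges overlapped. Hif1a was at 19.5 to 26.04 (median 22.8) FPKM under DZnep and 19.9 to 28.6 (median 23.6) FPKM under saline, with a difference of -0.04 (adjusted p = 0.251). The saline library rich in immune markers was the highest of all SCN libraries for Hk2 (4.93 FPKM) and Pfkfb3 (12.2 FPKM). Of the lists of other genes, the HIF machinery had 0 lower and 2 higher of 11 and other HIF targets 4 lower and 5 higher of 26. For all lists in the SCN, the shares of all genes tested were 18.3% lower and 16.9% higher. Other glycolysis genes had 0 lower and 3 higher of 12, the pyruvate list 0 lower and 5 higher of 13, the tricarboxylic acid cycle 2 lower and 4 higher of 20 (Ogdh, a subunit of the oxoglutarate dehydrogenase complex, at 0.24), the pentose phosphate list 1 lower and 0 higher of 9, and the glycogen and gluconeogenesis list 2 lower and 2 higher of 14.

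Across the day, 2 of the 30 members followed a 24 h cosine in DZnep SCN (Slc2a1 and Pfkp), against 10.2% of all genes, and 3 in saline SCN (P4ha1, P4ha2 and Hif1a), against 18.3%. P4ha1, described above as a collagen hydroxylase subunit, had a fitted amplitude of 0.14 under DZnep (adjusted p = 0.11) and 0.33 under saline (adjusted p = 6.26e-05), where its peak was at CT 16.7. At CT15 it had 7.55, 7.41, 8.26 and 7.46 FPKM under DZnep, against 11.4, 13.02, 10.4 and 11.5 FPKM under saline, while at CT3 it had 7.83, 8.61, 7.75 and 6.89 FPKM under DZnep and 6.02, 7.01, 6.7 and 8.15 FPKM under saline. The groups were thus apart at CT15 and overlapped at CT3. It was the member whose rhythm differed between arms (0.36, adjusted p = 0.0242), against 0.308% of all genes, and the call was lost with the values as deposited (adjusted p = 0.141). It was also lost without 1 of 5 libraries, saline replicate 1 at CT3, saline replicate 2 or 4 at CT15, or DZnep replicate 1 or 2 at CT15 (adjusted p = 0.0503 to 0.0708). P4ha2 had an amplitude of 0.36 under saline with a peak at CT 18.97 (adjusted p = 3.05e-05), and Hif1a one of 0.15 with a peak at CT 10.01 (adjusted p = 0.00179). Neither differed from its DZnep curve in the test (adjusted p = 0.18 and 0.637). Slc2a1 had an amplitude of 0.20 under DZnep (adjusted p = 0.017) and 0.14 under saline (adjusted p = 0.11).

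**Figure D5:**
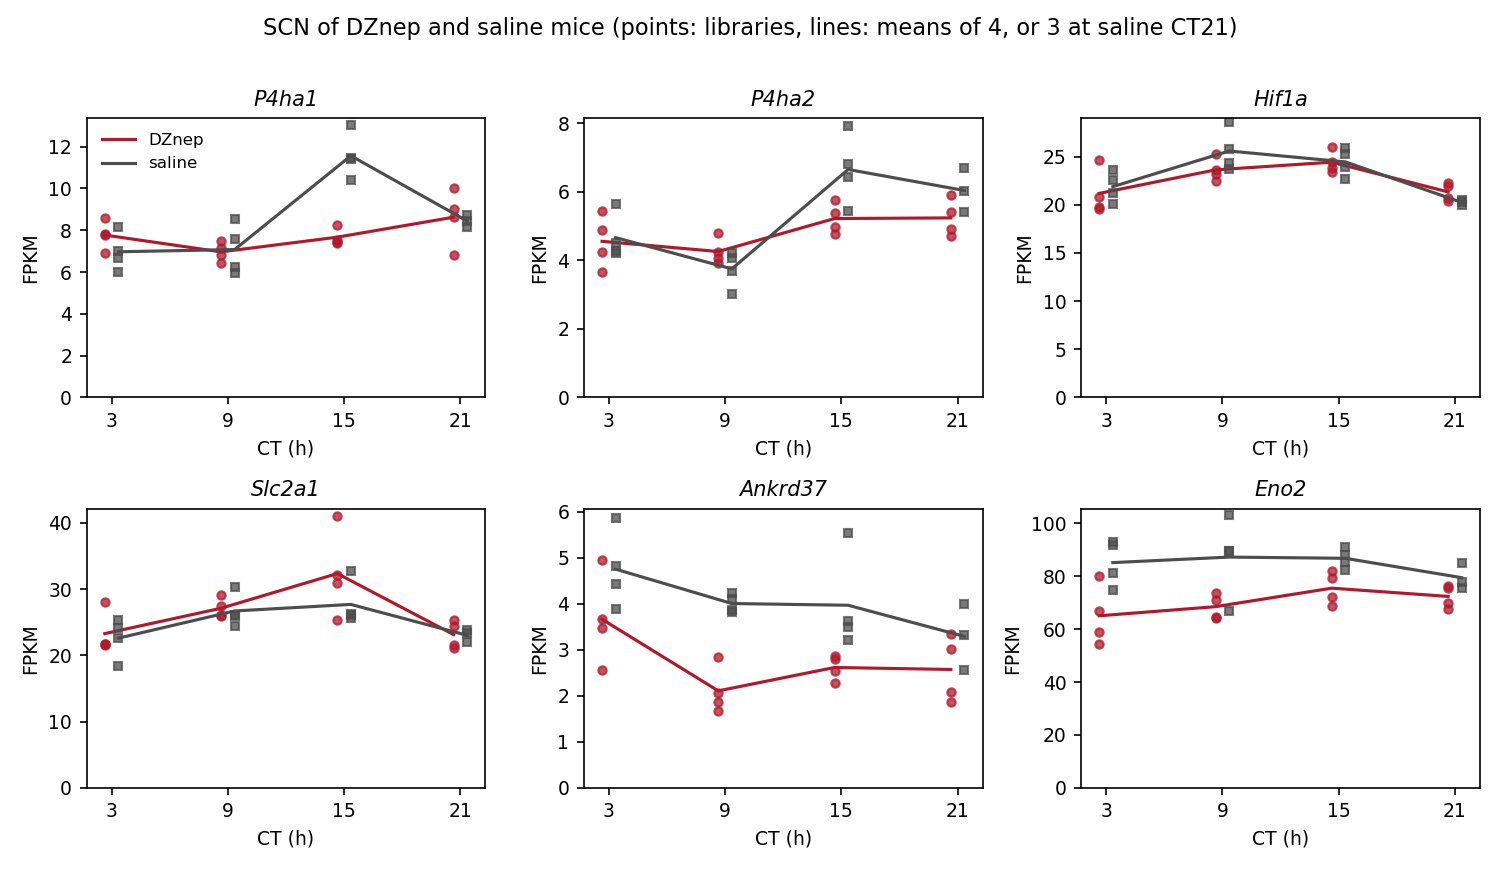
Level (FPKM) of 6 members by CT in DZnep and saline SCN, points for libraries and lines through the group means. P4ha1 at CT15 stands at 7.67 ± 0.399 FPKM under DZnep, below 11.6 ± 1.08 FPKM under saline (SD, n = 4 each), and Eno2 under DZnep runs below saline on average.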

How the data were processed

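Expression was measured by RNA-seq in 79 mouse libraries. Per the labels' protocols, fibroblast RNA was taken with TRIzol and made into TruSeq libraries, and SCN RNA into SMARTer stranded pico libraries. Per the submitters' processing notes, the tools named are bcl2fastq 2.18.0.12, Trimmomatic 0.36, TopHat2 2.1.1 and Cufflinks 2.2.1 with build mm10, with no role or order. The annotation used, with its strand setting, is not given in the sources used here. Values deposited by the authors for the KO experiment sum to 970075 to 980677 per library and were read as TPM. Those deposited for the DZnep fibroblasts and the SCN were read as FPKM. Both are normalized, so no count test was run, and depth per sample is unknown. Each arm came as a separate table, and repeated names were averaged.

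Median-ratio factors, computed over both arms of an experiment, rescaled its libraries. A gene was tested where 3 or more libraries had a value of 1 or above, on log2(value + 1) with limma 3.58.1 (R 4.3.3, mean-variance trend), with Benjamini-Hochberg adjustment over all genes tested and a threshold of 0.05. Fold changes on this scale understate low genes. Levels and changes used group means, and rhythms a 24 h cosine with terms for each arm. Libraries of 1 group are named biological replicates in the labels. No libraries held identical values. The script was tested on simulated data. Alternatives were scaling (as deposited, quantile), pseudocount 0.1, low-value filters, a replicate block, other time models, libraries left out for high Malat1, CT20 or immune markers (the last chosen after seeing the data), and each library left out in turn. The 31 members and the other gene lists were chosen with earlier results of these data known. Those named from other lists were among the 3 with the smallest adjusted p in each list. Promoter sequences came from RefSeq (GRCm38.p6).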

Additional observations from a re-analysis of the deposited data

Results flagged for a closer look

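A tested difference between arms in time course marks 26 results. The cosine differed between KO and WT for Gpi1 (0.14), Aldoa (0.13), Pdk1 (0.16), P4ha2 (0.20) and Vegfa (0.35), as the log2 size of the difference. The change between CT12 and CT32 was more positive in KO than in WT for Slc2a1 (0.54), Hk2 (0.45), Pfkl (0.18), Tpi1 (0.28), Pgk1 (0.20), Pgam1 (0.49), Eno1 (0.54), Pkm (0.24), Egln1 (0.34) and Ndrg1 (0.69). It was more negative in KO for Gpi1 (-0.28), Pfkm (-0.36), Eno2 (-0.42), Hif1a (-0.25), Pdk1 (-0.27), P4ha1 (-0.17), P4ha2 (-0.36) and Vegfa (-0.89). Between CT12 and CT24 the change under DZnep differed from that under DMSO for Pfkfb3 (-0.53) and Egln1 (0.51). In the SCN the rhythm of P4ha1 differed between DZnep and saline by 0.36.

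A library far from the other 3 of its group marks 19 of the 217 SCN groups of 4 examined, where chance alone marks about 1 in 20. DZnep replicate 2 at CT3 was the highest of its group for 5 genes, Slc2a1 (28.0 FPKM), Pfkm (65.7 FPKM), Aldoa (329.9 FPKM), Pgk1 (80.6 FPKM) and Pkm (231 FPKM). DZnep replicate 4 at CT21 stood out for Hk1 (43.5 FPKM), Pgam1 (108.5 FPKM) and Ndrg1 (84.1 FPKM). All these flags were read on values as deposited. The rescaling factor was 1.086 for DZnep replicate 2 at CT3, against 0.9365 to 0.9482 in the rest of its group. For DZnep replicate 4 at CT21 it was 1.053, against 0.9738 to 0.9896. Flags of 1 library share its scale, so they are not independent, and the part of that scale was not tested. The other DZnep libraries marked were low for Ldha at CT9 (replicate 1, 28.0 FPKM) and Pfkfb3 at CT3 (replicate 4, 5.55 FPKM), and high for Egln1 at CT9 (replicate 3, 18.03 FPKM) and P4ha1 at CT15 (replicate 3, 8.26 FPKM).

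Among saline libraries, replicate 2 at CT9 stood out for Slc16a3 (1.47 FPKM), Hk2 (4.93 FPKM) and Pfkfb3 (12.2 FPKM), and it is the library with the immune marker sum of 826.2 FPKM. The others were Slc2a1 at CT15 (replicate 1, 32.8 FPKM), Pfkl at CT3 (replicate 4, 17.7 FPKM), Pgk1 at CT15 (replicate 2, 77.1 FPKM) and Bnip3 at CT9 (replicate 1, 21.9 FPKM).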

How the results depend on the processing

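Over the member results, 3070 of 3254 alternative fits kept direction and side of the threshold, 81 lost the call, 96 gained one and 7 reversed. Leaving out 1 of the 79 libraries at a time, 12307 of 12624 kept both, 202 lost the call, 115 gained one and none reversed. The median difference of all genes between KO and WT was -0.05, but 0.15 with values as deposited and 0.05 under quantile normalization. Reversals were, for the KO minus WT level, Slc16a3 (0.0049) and Eno1 (0.22) as deposited and Slc16a3 (0.16) and Pkm (0.27) under quantile normalization, and also under quantile normalization the WT change of P4ha1 (0.10), the KO minus WT change of Pfkl (-0.0040) and the DMSO change of Gpi1 (0.19). The cause was not tested. Depth is unknown, which limits what can be said of the low values (Slc16a3, Car9 and Ankrd37).

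Testing any difference among times gave 16 members and 5813 genes in KO (6 and 1345 with the cosine), 28 and 9454 in WT (11 and 4970), 24 and 7103 for KO minus WT (5 and 1970), and 80 genes for the SCN difference (41). A linear trend in the model gave 5 members and 907 genes in KO, 21 and 4228 in WT, and 14 and 2203 for KO minus WT. Without libraries high in Malat1, KO had 3 members and 850 genes, KO minus WT 2 and 1306, and the DZnep minus DMSO change 3 members and 526 genes higher (1 and 349). Without CT20, 3 members differed in rhythm, and under quantile normalization 9. Values as deposited gave 1586 genes lower in the DZnep SCN (2433), 1615 with a saline rhythm (2436) and 0 members and 12 genes with a rhythm difference. A mean of at least 5 gave 1615 genes lower in the DZnep SCN, 120 with a rhythm difference, and 0 members and 182 genes with a more negative change under DZnep (1 and 317). No filter gave 3 members rhythmic in KO, 1 in DZnep SCN (2) and 0 higher under DZnep (1). Quantile normalization gave 0 higher under DZnep and 2 with a more negative change. Without the saline library rich in immune markers, 4 members were rhythmic in DZnep SCN and 114 genes differed in rhythm.

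Same-numbered libraries did not regularly deviate together (correlations over 0.1 in 5 of 18 pairs in the KO experiment, 3 of 6 in the DZnep fibroblasts and 1 of 15 in the SCN). The median correlations were 0.0369, -0.0185 and -0.0712, and the main fits did not pair them. Some pairs did share a deviation: replicate 2 was high in Malat1 in both KO and WT at CT24 and CT32, with correlations of 0.21 and 0.191. The replicate block gave 3 members rhythmic in KO, 1 in DZnep SCN, 0 higher under DZnep in fibroblasts and 2 with a more positive change under DZnep.

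Leaving out each library in turn gave 2 to 7 members rhythmic in KO, 3 to 6 for KO minus WT, 3 to 6 rising in KO by CT32, 0 to 1 higher under DZnep, 1 to 5 rising under DZnep by CT24, 0 to 5 (145 to 1076 genes) with a more positive and 0 to 2 (149 to 863 genes) with a more negative change under DZnep, 1 to 4 rhythmic in DZnep SCN, 3 to 5 in saline SCN, and 0 to 1 (20 to 190 genes) with a rhythm difference there.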
